A study of Homo sapiens with 8 samples.

Results

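Box C/D small nucleolar RNAs (snoRNAs) were measured in selective ribosome profiling of the human chaperonin TRiC and its co-chaperone prefoldin (PFD). The members were the genes whose symbol starts with SNORD and a digit, annotated as snoRNA, with at least 50 counts summed over all 8 libraries. This rule gave 52 members out of 313 SNORD genes and 60664 genes in the tables. A further 35 SNORD genes had 1 to 49 counts, and 226 had none. Just below the threshold lay SNORD111, SNORD4A and SNORD91B with 34, 37 and 45 summed counts, and just above it SNORD3C, SNORD123 and SNORD90 with 52, 53 and 58.

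The cells were U2OS, a human osteosarcoma line, in 2 edited versions with a HaloTag on a chaperone subunit, namely CCT4-Halo for TRiC and PFDN4-Halo for PFD. Translation was stopped with cycloheximide (100 µg/ml, 1 min) and contacts were fixed with the crosslinker DSP (2 mM, 30 min) in every group before RNase I digestion and pelleting of ribosomes through sucrose. RNA was taken from the whole pellet (input) or from what anti-Halo beads recovered from it (pulldown). Each line thus gave an input and a pulldown group, 4 groups in all, with 2 biological replicates each, and no pulldown from cells without a tag was used here. Library totals ranged from 9523128 to 32637658 counts. The mesenchymal markers VIM, SPARC and COL1A1 had at least 13791 counts in every library, COL5A2 and RUNX2 at least 454, and COL1A2 at most 66. The markers of other lineages CDH1, PTPRC and ALB had at most 21, 5 and 6 counts, and EPCAM and CDH5 at most 277 and 275.

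Box C/D snoRNAs are short, stable RNAs of the nucleolus that guide 2′-O-methylation of ribosomal RNA. Each pairs with its target just upstream of a D or D′ box, and the paired base at a fixed distance from that box is methylated by fibrillarin (FBL), which sits on the RNA together with NOP56, NOP58 and SNU13. Most are cut from introns of host genes, many of which encode ribosomal proteins or translation factors. A few, such as U3 (the SNORD3 genes) and U14 (the SNORD14 genes), act in the processing of the precursor rRNA.

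The sequences below belong to some of the members with the most counts and to those with the highest and lowest fold change in TRiC pulldown, and show the box layout that defines the family. They were read from hg38 at the GENCODE 44 gene positions, which were SNORD104 at chr17:64146083-64146152 (plus strand), SNORD14E at chr11:123058077-123058161 (minus strand), SNORD14A at chr11:17074654-17074744 (minus strand), SNORD92 at chr2:28913664-28913748 (plus strand), SNORD37 at chr19:3982507-3982572 (minus strand) and SNORD70B at chr2:202278108-202278192 (plus strand). Each is written 5′ to 3′ on the transcribed strand, and capitals mark a C box (ATGATGA or GTGATGA beginning within 25 bases of the 5′ end) and a D box (the last CTGA within 25 bases of the 3′ end).
SNORD104: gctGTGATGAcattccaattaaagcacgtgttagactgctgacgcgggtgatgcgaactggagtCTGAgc
SNORD14E: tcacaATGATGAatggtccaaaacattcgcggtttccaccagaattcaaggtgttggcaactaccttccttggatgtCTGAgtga
SNORD14A: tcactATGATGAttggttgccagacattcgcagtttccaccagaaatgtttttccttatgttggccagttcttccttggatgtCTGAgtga
SNORD92: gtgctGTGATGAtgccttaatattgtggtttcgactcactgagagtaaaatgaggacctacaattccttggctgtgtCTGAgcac
SNORD37: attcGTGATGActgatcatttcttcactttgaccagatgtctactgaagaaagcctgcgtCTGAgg
SNORD70B: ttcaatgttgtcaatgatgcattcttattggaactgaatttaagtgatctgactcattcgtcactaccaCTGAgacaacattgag

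A C box in this form, searched on the transcribed strand alone, was found in 36 of the 52 members (69.2%), in 64.2% of all SNORD genes and in 0% of the SNORA genes, the H/ACA box class that guides pseudouridylation. The D box was found in 50 members (96.2%), in 90.1% of all SNORD genes and in 10.7% of the SNORA genes. SNORD70B has the D box without this C box. The members were 64 to 699 bases long with a median of 84, and their GC content ranged from 31.2% to 70.3% with a median of 46.2%.

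A stretch of at least 10 bases with perfect complementarity to mature rRNA, ending at most 1 base before a CTGA, was found in 26 of the 52 members (50%), in 26.2% of all SNORD genes and in 2.8% of the SNORA genes. Among these members, 12 stretches matched 18S and 14 matched 28S rRNA, while none matched 5.8S. SNORD104 carries 14 bases complementary to 28S positions 1337 to 1350. SNORD14E and SNORD14A carry 14 and 13 bases complementary to 18S, both starting at position 458. For SNORD92 the match lies in 28S, beginning at position 3864. No such stretch was found in SNORD37, SNORD53, SNORD53B or SNORD117. These are matches of letters, and methylation was not measured here.

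Some members resemble other SNORD genes, which bears on counts made from uniquely aligned reads. SNORD3A and SNORD3C share an identical stretch of 473 bases, and SNORD62B is identical to SNORD62A over all 86 of its bases. Those 3 members and SNORD13 were the 4 of 52 sharing at least 30 bases with another SNORD gene, so their counts are uncertain. At least 20 bases were shared by 16 of the 52. Among them were SNORD14E and SNORD14A (23 with SNORD14B) and SNORD15B (23 with SNORD15A). How far such stretches affected counts was not tested, and genes outside the SNORD family were not searched. SNORD14E and SNORD14A share at most 21 bases with each other, as do SNORD53 and SNORD53B.

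Counts of SNORD genes also went with their annotation. Of 139 SNORD genes with at least 50% of their bases under exons of another gene on the same strand, 134 had no counts and 3 were members (SNORD48, SNORD7 and SNORD70B). Of 170 SNORD genes free of such bases, 46 were members. The repeated SNORD113 to SNORD116 clusters hold 122 genes, of which 115 had no counts and none was a member. No member lay under an exon of a gene on the opposite strand. The gene counter of the aligner sets aside reads that overlap more than 1 gene, and its part in these zeros was not tested.

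Counts of the members were concentrated in a pair of genes. SNORD104, in an intron of the noncoding host SNHG25, held 60.0% of all member counts, and SNORD14E, in HSPA8 (the constitutive cytosolic Hsp70), held 18.8%. Per base of gene length the summed counts were 2534 for SNORD104, 654 for SNORD14E, 127 for SNORD38A and 90.2 for SNORD14A. The remaining members ranged from 61.4 counts per base for SNORD92 down to 0.0895 for SNORD3C.

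The share of all counts that fell in members was higher in the TRiC pulldown than in its input. It was 1181 and 1151 CPM in the 2 TRiC inputs and 2444 and 2431 in the 2 TRiC pulldowns. CPM is the usual scaling of counts to a common library total, here without TMM. The ratio of means was 2.09 ± 0.0390 (n = 2 per group). The error of each such ratio was propagated from the SDs of both groups. In the PFD line the inputs held 1186 and 1021 and the pulldowns 1484 and 1369 CPM, a ratio of 1.29 ± 0.155. Neither pair of groups overlapped. These are shares of the RNA sequenced, so more snoRNA and less of other RNA in a pulldown cannot be told apart. With 2 libraries a group an exact permutation test cannot give a two-sided p below 0.333, so none is given for these sums.

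SNORD104 carried much of the member total. Without it, the TRiC ratio was 1.52 ± 0.0784 and the PFD ratio 1.07 ± 0.150, and the PFD groups then overlapped. Without both SNORD104 and SNORD14E, the other 50 members went from 225.5 and 164.5 CPM in TRiC input to 464.5 and 464.7 in TRiC pulldown, a ratio of 2.38 ± 0.527. In the PFD line the same 50 members held 376.8 and 268.0 in input and 387.6 and 375.4 in pulldown.

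Member by member, TRiC pulldown was compared with TRiC input by edgeR's quasi-likelihood test. Of the 52 members, 47 passed the filter on low counts, 17 rose and 1 fell at an adjusted p under 0.05, beside 8.64% of all tested genes that rose and 10.6% that fell. The median log2 fold change of the tested members was 1.11, against -0.00324 over all tested genes, and 44 of 47 lay above 0. Groups did not overlap for 31 members that were higher in the pulldown and for 1 that was lower, against 29.3% and 31.2% of all tested genes. Because a member could pass the filter through the group where it was high, all 52 were also fitted without it. Of these, 49 then lay above 0 with a median of 1.05. Over all genes fitted that way 18284 of 35941 lay above 0, with a median of 0.0172. The rule of at least 50 summed counts used these same libraries, so a member could still enter through its high group. When all 8 libraries shared one fit, and with it the wider spread of the PFD libraries, 2 members, SNORD104 and SNORD38A, were called higher and none lower, against 0.0849% and 0.0796% of all genes tested there, and the median was 1.10. All other calls of members given below for TRiC were lost in that fit. All levels of single members given from here on are CPM with TMM scaling within each line, unless raw counts are named.

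SNORD104 stood at 699.0 and 673.0 CPM in TRiC input and at 1673 and 1654 in TRiC pulldown. The pulldown libraries lay far above both inputs, and the log2 fold change was 1.28 ± 0.06 (SE, n = 2 per group, edgeR adjusted p = 1.47e-10). SNORD14E was not called. The inputs held 292.0 and 310.0 and the pulldowns 263.0 and 292.0, so the groups met at their edges, with a log2 fold change of -0.12 ± 0.08 (adjusted p = 0.304). SNORD14A, another U14 gene in an intron of RPS13, was measured at 39.0 and 29.5 in input and at 53.9 and 60.5 in pulldown. It rose by 0.74 ± 0.12 (adjusted p = 0.000595), and its groups did not overlap. Of these related U14 genes SNORD14A alone was called, and the difference between the pair was not tested.

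SNORD38A had one of the steepest rises among abundant members. Its levels were 17.2 and 8.94 in TRiC input and 100.0 and 102.0 in TRiC pulldown, a log2 fold change of 2.96 ± 0.18 (adjusted p = 4.49e-09). SNORD46 went from 4.29 and 2.04 to 7.37 and 9.28, a rise of 1.40 ± 0.30 (adjusted p = 0.00353). Both pulldowns exceeded both inputs for each of them.

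SNORD37, within EEF2 (the translation elongation factor that moves the ribosome along), had the largest rise of the tested members in TRiC pulldown. Its raw counts were 11 and 1 in TRiC input and 313 and 245 in TRiC pulldown, and the log2 fold change was 5.49 ± 0.46 (adjusted p = 4.36e-07). It had few counts in the inputs and many in both pulldowns. Of its 66 bases, 28 lie under a same-strand exon of another gene. EEF2 itself had a log2 fold change of -0.51 ± 0.07 in the same comparison (adjusted p = 0.000112). The estimate for SNORD37 rests on few input counts and was 4.56 without TRiC input replicate 2 and 8.01 without replicate 1. In the PFD line its raw counts were 43 and 0 in input and 161 and 209 in pulldown. Those groups did not overlap, but SNORD37 was not called there (log2 fold change 3.41 ± 1.53, adjusted p = 0.731).

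The WDR43 introns hold SNORD92, SNORD53 and SNORD53B. SNORD92 went from 21.8 and 13.8 in TRiC input to 39.1 and 38.4 in pulldown, a log2 fold change of 1.13 ± 0.16 (adjusted p = 0.00016). SNORD53B went from 4.29 in both inputs to 11.4 and 12.8 (1.49 ± 0.20, adjusted p = 0.000108), and SNORD53 from 3.10 and 5.64 to 9.05 and 13.5 (1.36 ± 0.27, adjusted p = 0.00212). All 3 rose with groups apart, while WDR43 had a log2 fold change of -0.09 ± 0.10 (adjusted p = 0.567).

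SNORD117, in DDX39B, went from 1.91 and 1.15 to 5.48 and 8.84 in TRiC pulldown, a rise of 2.22 ± 0.33 (adjusted p = 0.000248). SNORD19C, in GNL3 (nucleostemin), went from 1.84 and 0.890 to 3.72 and 7.18, a rise of 1.99 ± 0.40 (adjusted p = 0.00242). SNORD17, a long member in SNX5, was at 21.5 and 15.3 in input and at 37.9 and 48.7 in pulldown, a rise of 1.23 ± 0.15 (adjusted p = 4.44e-05). The host DDX39B rose as well, by 0.94 ± 0.12 (adjusted p = 6.8e-05).

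SNORD13 (U13), which has no host gene, rose from 17.4 and 16.2 in TRiC input to 43.0 and 29.5 in pulldown (1.11 ± 0.15, adjusted p = 0.000125). SNORD3A (U3) was at 1.33 and 0.495 in input and 1.56 and 2.34 in pulldown, with a log2 fold change of 1.09 ± 0.56 (adjusted p = 0.19). SNORD3G, a further U3 gene, had raw counts of 2 and 1 in input and 26 and 10 in pulldown (3.41 ± 1.15, adjusted p = 0.0466), and that call was lost in 8 of its 10 alternative fits.

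The 1 member that fell was SNORD70B, in NOP58, with 62 of its 85 bases under a same-strand exon, whose raw counts were 14 and 11 in TRiC input and 0 in both TRiC pulldowns. Against a floor of 3 counts in each pulldown library it was at least 4.15-fold lower (adjusted p = 0.0198). Its call was lost without either pulldown library, with adjusted p of 0.117 and 0.127. SNORD15B and SNORD83A, both abundant, were not called, with log2 fold changes of 0.27 ± 0.13 (adjusted p = 0.176) and 0.28 ± 0.25 (adjusted p = 0.477). SNORD100, in RPS12, rose by 0.90 ± 0.22 (adjusted p = 0.00814), from 5.76 and 4.72 to 11.0 and 8.53. That call was lost in 2 of its 12 alternative fits. The other called members were SNORD66, SNORD1B and SNORD9, at 1.35, 1.20 and 1.19.

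**Figure D1:**
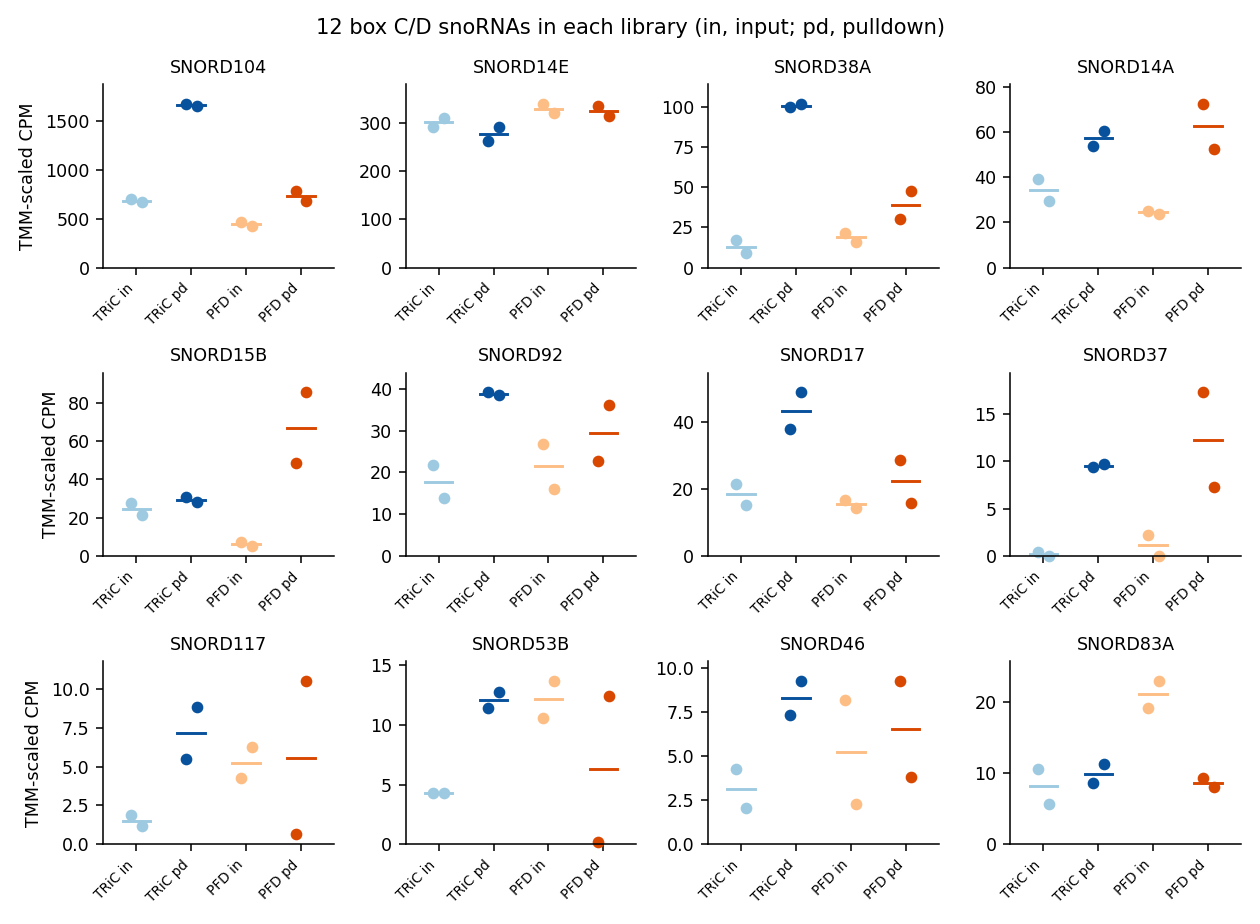
TMM-scaled CPM (y axis, starting at 0, scale differs by panel) of 12 members in each group (x axis: input and pulldown of each line), with a point for each library and a bar for the mean of 2. SNORD104 and SNORD38A separate TRiC pulldown from TRiC input, SNORD14E does not, and SNORD15B is highest in PFD pulldown.

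The members were also split by what their sequence matches. Of those with an 18S match, 12 were tested and 3 rose, with a median log2 fold change of 0.77. Of those with a 28S match, 12 were tested and 6 rose, with a median of 1.08, and of those without a match, 23 were tested and 8 rose, with a median of 1.15. By host, 4 of 8 tested members in ribosomal protein genes rose (median 0.725), as did 9 of 27 in other coding genes (median 1.19), 2 of 9 in noncoding hosts (median 0.87) and 2 of 3 without a host (median 1.11). Over all tested genes 8.64% rose. Differences between these classes were not tested.

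In TRiC pulldown most tested members had a higher fold change than the gene they lie in. Of 41 tested members with a tested host, in 33 host genes, 36 had a higher log2 fold change than the host and 5 a lower one. The hosts ranged from -0.51 to 1.43 with a median of -0.09. Of the hosts 9 were called, 4 of them higher, beside 8.64% of all tested genes called higher and 10.6% called lower. Across the 41 members the fold changes of snoRNA and host had Pearson's r = -0.041 and Spearman's rho = 0.01. This describes genes that share libraries and, for some, a host. In PFD pulldown, 37 tested members had a tested host. Of these, 18 had a higher log2 fold change than the host and 19 a lower one. Members that did not pass the filter on low counts are left out of both comparisons.

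**Figure D2:**
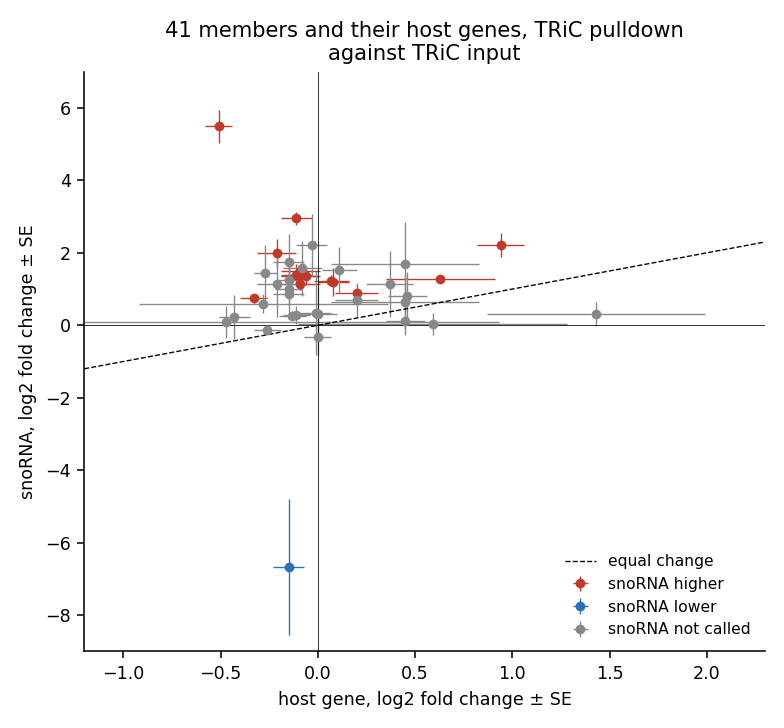
Log2 fold change in TRiC pulldown against TRiC input (± SE, 2 libraries a group) of 41 members (y axis) and of the gene each lies in (x axis), coloured by the member's call, with a dashed line where both would be equal. Of these, 36 lie above the line, and hosts stay between -0.51 and 1.43.

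None of the genes for core proteins and assembly factors of the box C/D particle had counts called higher in TRiC pulldown. Among the core proteins, FBL and SNU13 fell, by 0.43 ± 0.10 (adjusted p = 0.0048) and 0.31 ± 0.09 (adjusted p = 0.0186), while NOP58 and NOP56 were not called at -0.15 and -0.15. Of 8 assembly factors, RUVBL1 and RUVBL2 fell, by 0.29 ± 0.09 (adjusted p = 0.0292) and 0.41 ± 0.08 (adjusted p = 0.00208), and NUFIP1, ZNHIT3, ZNHIT6, RPAP3, PIH1D1 and NOPCHAP1 were not called. Over all tested genes 8.64% rose and 10.6% fell in TRiC pulldown. In PFD pulldown none of these 12 genes was called, beside 0.0496% of all tested genes that rose and 0.191% that fell.

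Other noncoding RNAs of the nucleus moved in the same direction in TRiC pulldown. Of 50 SNORA genes with at least 50 counts, 49 were tested and 35 rose, with a median of 2.08 and none below 0. Among all tested genes 8.64% rose and 10.6% fell. Of 12 small Cajal body RNAs 6 rose (11 tested, median 1.56), and of 174 spliceosomal snRNA genes and copies 50 rose and 4 fell (129 tested, median 1.19). Of 6 long or structural nuclear RNAs, 3 were tested and 2 rose, MALAT1 by 1.67 ± 0.20 (adjusted p = 3.17e-05) and NEAT1 by 1.54 ± 0.23 (adjusted p = 0.000258), while RN7SK, RMRP and RPPH1 had 0 counts in every library. Summed, those 6 held 36.99 and 18.86 CPM in TRiC input and 95.6 and 84.65 in TRiC pulldown. In the PFD line they held 61.37 and 32.86 in input against 28.35 and 19.1 in pulldown. The other lists differed from this in PFD. Their summed shares had a ratio of pulldown to input of 1.08 ± 0.184 for the SNORA genes, 2.89 ± 0.619 for small Cajal body RNAs and 0.863 ± 0.16 for the snRNA genes and copies. Of these lists only the small Cajal body RNAs had groups without overlap. The part of all these RNAs in the result for box C/D snoRNAs was not tested.

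In PFD pulldown the members were measured with less precision. Of the 41 members tested, 1 rose and none fell at an adjusted p under 0.05, beside 0.0496% of all tested genes that rose and 0.191% that fell. At an unadjusted p under 0.05, 5 members were higher and 8 lower, against 3.08% and 3.86% of all tested genes. DESeq2 called 4 higher and 5 lower, against 1.93% and 2.22% of the genes it gave an adjusted p. Groups did not overlap for 7 members that were higher and 20 that were lower, against 18.3% and 20.4% of all tested genes. The median log2 fold change was -0.924, against -0.000478 over all genes, and 17 of 41 members lay above 0. Without the filter on low counts 21 of 51 lay above 0, with a median of -1.19. The median of -0.924 became 0.0314 without PFD input replicate 1 and -2.29 without PFD pulldown replicate 2, and over members with at least 10 counts in every library it was 0.539. The common dispersion of edgeR was 0.331 for the PFD libraries and 0.0153 for the TRiC libraries.

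The member that rose was SNORD15B, which lies in RPS3. It was at 7.50 and 5.19 CPM in PFD input and at 48.3 and 85.4 in PFD pulldown, a log2 fold change of 3.39 ± 0.41 (adjusted p = 0.0264), and it kept its call in all 12 alternative fits. Its PFD inputs lay below both TRiC inputs, at 27.6 and 21.4, although levels of the lines were scaled separately. RPS3 itself had a log2 fold change of 0.11 ± 0.09 (adjusted p = 0.905).

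SNORD104 was higher in both PFD pulldowns, at 787.0 and 680.0, than in the PFD inputs, at 462.0 and 423.0. Its log2 fold change of 0.73 ± 0.11 missed the threshold (adjusted p = 0.0757) and passed it in 9 of 12 alternative fits. SNORD14A was at 25.1 and 23.8 in PFD input and 72.3 and 52.6 in pulldown (1.35 ± 0.28, adjusted p = 0.295, past the threshold in 6 of 12 alternative fits), and SNORD38A at 21.8 and 16.2 in input and 30.3 and 47.5 in pulldown (1.03 ± 0.37, adjusted p = 0.706). SNORD14E was at 339.0 and 320.0 in input and 336.0 and 315.0 in pulldown, so its groups overlapped (-0.02 ± 0.11, adjusted p = 0.996). SNORD92 and SNORD17 were at 0.45 ± 0.42 and 0.51 ± 0.46 (adjusted p = 0.929 and 0.926), also with overlap. Other abundant members were lower in both pulldowns than in both inputs, though not called. These were SNORD13 (-1.18 ± 0.50, adjusted p = 0.719), SNORD83A (-1.28 ± 0.48, adjusted p = 0.706) and SNORD100 (-1.39 ± 0.99, adjusted p = 0.876).

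Many members were listed at few counts in the PFD pulldown, unevenly between its libraries. In replicate 1, the smallest library, 15 of 52 members had no counts, and 11 had none in replicate 2, whereas 2 and 11 had none in the PFD inputs and at most 1 in any TRiC library. SNORD126 had 38 and 25 raw counts in PFD input and 0 in both pulldowns, at least 10.2-fold lower against a floor of 3 counts per library (edgeR adjusted p = 0.703). SNORD9 had 36 and 14 against 0 and 0, at least 7.5-fold lower (adjusted p = 0.707). SNORD53B was split between pulldown replicates, at 2 and 353 raw counts, as was SNORD117 at 6 and 301. For SNORD53 the raw counts went the other way, with 261 in the smaller library and 177 in the larger one.

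**Figure D3:**
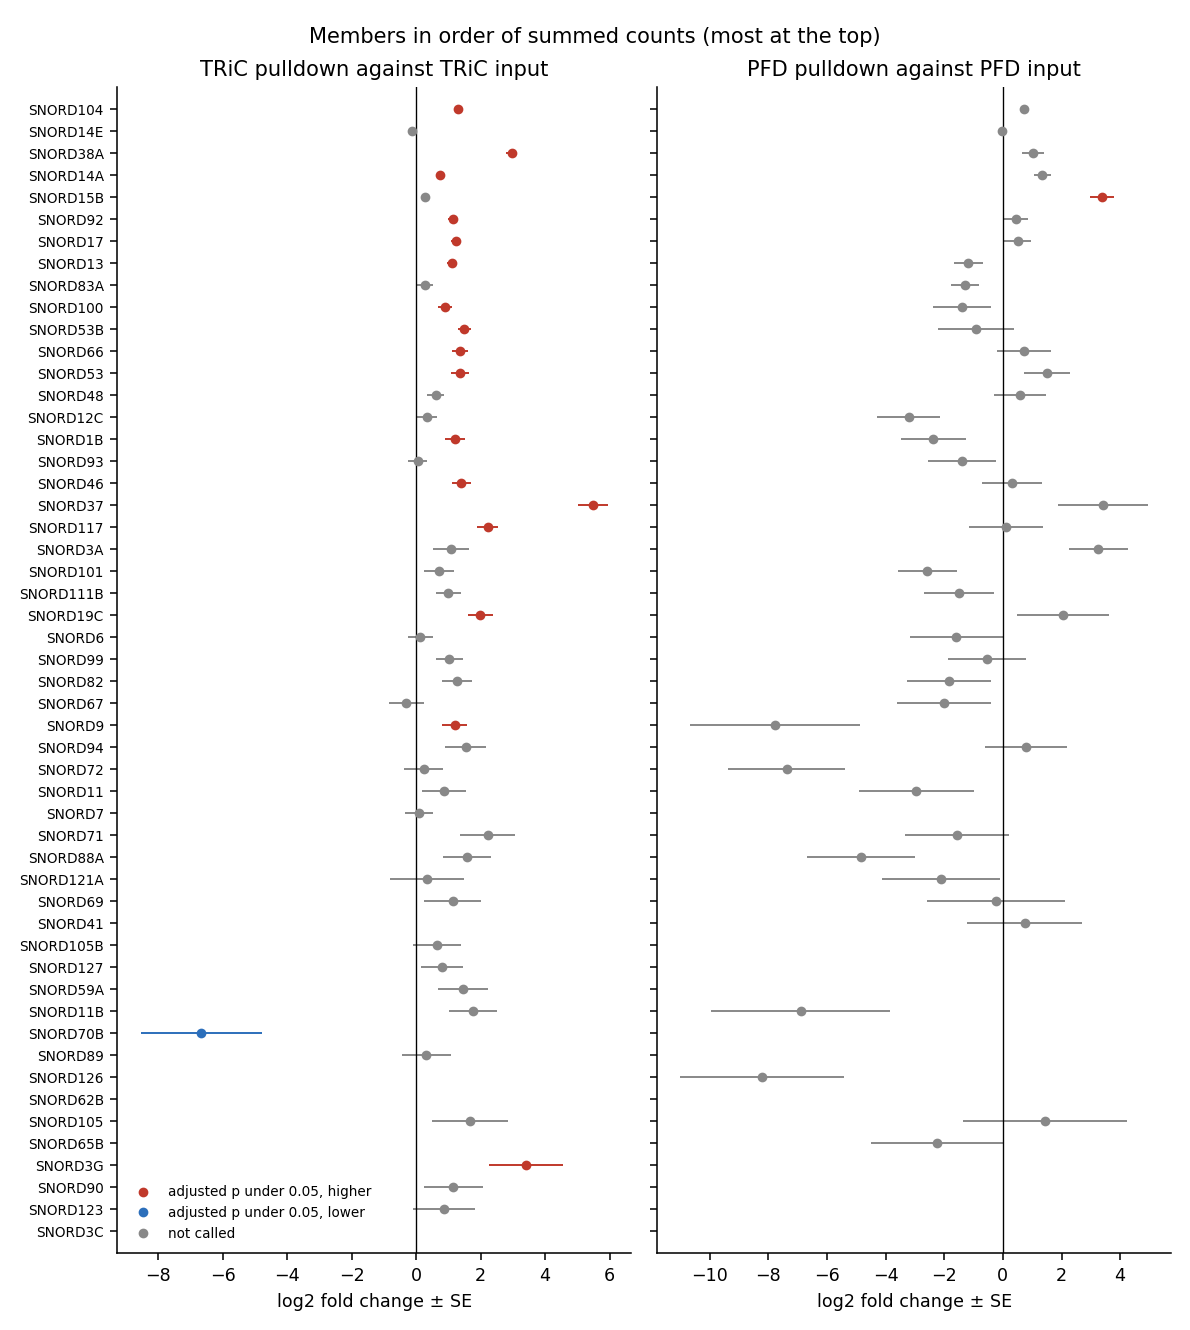
Log2 fold change of pulldown against input (x axis, ± SE, 2 libraries a group) for TRiC on the left and PFD on the right, with members from the most to the fewest summed counts down the y axis and no point where a member was not tested. In the TRiC panel 44 of 47 points lie right of 0, and in the PFD panel 17 of 41 do, with wider errors.

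Whether the TRiC and PFD changes differed was tested with an interaction term over all 8 libraries. None of 50 tested members was called by edgeR, beside 0.0212% of all tested genes with a larger change in TRiC and 0.0159% with a smaller one. At an unadjusted p under 0.05, 17 members had the larger change in TRiC and 2 the smaller, against 7.29% and 7.51% of all tested genes. DESeq2 called 8 and 1, against 3.02% and 3.36% of the genes it gave an adjusted p. Some of the 50 were tested through their TRiC counts, such as SNORD123, which had no counts in any PFD library. Some of the 17, and SNORD70B among the 2, did not pass the filter in the PFD libraries alone. No median over the 50 is therefore given, and the counts of called members in this comparison are not read as a result about the members. The smallest p belonged to SNORD15B, with a difference of -3.11 ± 0.47 (adjusted p = 0.105). Without PFD pulldown replicate 1 the calls were 8 and 1, against 2.93% and 2.69% of all genes then tested. Without PFD pulldown replicate 2 they were 19 and 2, against 11.6% and 6.73%.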

How the data were processed

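Counts per gene were deposited for ribosome-protected fragments from 8 libraries in 2 tables, for the TRiC and PFD lines. The authors trimmed and demultiplexed reads, used UMI-tools, removed reads matching a library of noncoding RNA, rRNA among it, with Bowtie2 2.4.2, and counted unique alignments with STAR 2.7.10a on hg38 with at most 2 mismatches. Whether that library held snoRNAs, the annotation release and the strand column kept are not given in the sources used here, so snoRNA counts are what passed this step, and their absolute level is open.

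Of 60664 identifiers, 60463 matched GENCODE 44. Positions of rRNA genes came from RefSeq. Members and lists were chosen with earlier results of these data known. Pulldown was compared with input within each line using edgeR 4.0.16 (R 4.3.3; TMM, filterByExpr, glmQLFit, glmQLFTest, Benjamini-Hochberg adjusted p under 0.05 over all genes tested), and both enrichments by an interaction over 8 libraries. The SE of an edgeR log2 fold change was derived from the test, as its absolute value divided by the square root of the F statistic. The host was the gene whose span held the member on the same strand. A floor of 3 counts per library was used for lower bounds, and covers counting error only. The named genes were the 10 members with the most counts, up to 8 called members at each end of each pulldown, their hosts, and the box C/D core and assembly factors. SNORD3A, SNORD66, SNORD1B, SNORD9, SNORD126 and the genes named for their annotation or sequence alone fall outside that rule and were named after their values were seen. Replicate numbers were not used as pairs. The alternatives were DESeq2 1.42.0, limma 3.58.1 after cyclic loess, other scalings and filters, a replicate block, other member thresholds and leaving out each library. Some sequences and 1 host gene that the rule picked are not reported here.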

Additional observations from a re-analysis of the deposited data

How the results depend on the processing

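Members called higher in TRiC pulldown stayed within 1.5 times of 17 in every alternative that kept all libraries, except the fit of all 8 in one (2). That fit called 0.0849% of all genes higher. Shares over all genes in the other alternative TRiC fits are not given here, so these counts are not read as a result about the members. The median log2 fold change of 1.11 was 0.853 to 1.31 when 1 library was left out. The 1 call of a fall was 0 with at least 10 counts in every library, with all 8 libraries in one fit, over members with at least 200 counts and when any TRiC library was left out (range 0 to 0). Where 1 library was left in a group, it was assumed to vary like the other groups. In 2 of these fits, without either TRiC input, SNORD70B was not tested.

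Members called higher in PFD pulldown (1) were 2 with cyclic loess, 4 with DESeq2, 4 without a filter, 2 with at least 10 counts in every library, 4 with a replicate block and 3 with all 8 libraries in one fit, and 1 to 6 when 1 library was left out. Members called lower (0) were 5 with DESeq2 and 0 to 10 when 1 library was left out (10 without PFD pulldown replicate 2, 5 without replicate 1). DESeq2 called 1.93% of all genes higher and 2.22% lower in PFD pulldown. Shares over all genes in the other alternative PFD fits are not given here, so these counts are not read as a result about the members. The PFD median of -0.924 was 0.539 with at least 10 counts in every library, -0.285 over members with at least 200 counts, and -2.29 to 0.0314 when 1 library was left out. Interaction calls (0 higher, 0 lower) were 8 and 1 with DESeq2, 5 and 1 without a filter, 0 and 1 with at least 10 counts in every library, and 0 to 19 and 0 to 2 when 1 library was left out. The share ratios were 1.52 for TRiC and 1.07 for PFD without SNORD104. The replicate block gave 18 members higher and 1 lower for TRiC, and in PFD it brought SNORD104 and SNORD14A past the threshold (adjusted p = 2.82e-05 and 0.0152). The labels do not say whether a number marks input and pulldown of the same pellet, and the deviations of same-numbered libraries correlated at 0.0587 for TRiC and -0.00887 for PFD, so the pairing is not settled.

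Direction changed in few named members, none of which was called in that comparison. SNORD14E was 0.00 in TRiC with cyclic loess and -0.07 to 0.02 in PFD when 1 library was left out, SNORD83A in TRiC ranged from -0.12 to 0.81, and in PFD SNORD53B ranged from -5.76 to 0.03, SNORD46 from -0.46 to 1.48 and SNORD117 from -3.01 to 1.01. SNORD117 in PFD was -0.72 with cyclic loess and -0.89 with the replicate block. The cause of these changes was not tested.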
